A study of Mus musculus with 12 samples.

Results

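The genes described here encode the subunits, activators and assembly factors of the proteasome, the chambered protease that degrades proteins tagged with ubiquitin. Members were taken by symbol: every probe set naming a single gene whose symbol begins with Psma, Psmb, Psmc, Psmd, Psme, Psmf or Psmg followed by a digit, without Psmb8, Psmb9, Psmb10 and Psmc3ip, with the brightest probe set kept for each gene. This gave 46 members of 19937 genes, sorted by known role into 16 core genes, 17 cap genes, 5 activator or inhibitor genes and 7 assembly genes. The remaining member, Psme3ip1, encodes a binding partner of the activator Psme3 and is not a subunit; the spelling of its symbol placed it in the set. The probe set that names Psme2 together with Psme2b was left out because it names several genes.

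RNA of whole small intestine was hybridised to 12 Affymetrix arrays, 1 per mouse. The P/S low group held 6 male wild-type FVB mice whose diet was poor in polyunsaturated relative to saturated fatty acids, and the Control group held 6 male wild-type FVB mice on a control high-fat diet. Both diets were given for 8 weeks, the labels give an age of 8 weeks for all animals, and no genetic change is named for either group. Whether that age is the one at the start or at the end of the diet is not settled here. Because the Control mice also ate a high-fat diet, the comparison is between 2 fat compositions as labelled and not between high and low fat; the segment of the intestine and the time of dissection are not given in the labels.

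As background, the proteasome consists of a barrel-shaped core of alpha and beta rings, in which Psmb5, Psmb6 and Psmb7 carry the cutting sites, and of a cap that binds ubiquitin chains, removes them, unfolds the substrate and feeds it into the barrel. The cap has a base of ATPases and scaffold proteins and a lid that holds the deubiquitylase Psmd14. Other activators, encoded by Psme1 to Psme4, can dock on the core in place of the cap, and dedicated chaperones assemble both particles. In mammalian cells the transcription factor encoded by Nfe2l1 raises the transcription of many subunit genes when proteasome activity is short, and in immune cells and under interferon Psmb8, Psmb9 and Psmb10 replace the 3 standard cutting subunits.

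Every measured gene of the core and of the cap that was bright enough to test was higher on the P/S low diet, by a modest amount of 1.17-fold to 1.48-fold. All 14 tested core genes and all 17 tested cap genes passed (limma, Benjamini-Hochberg adjusted p under 0.05), with median log2 differences, P/S low minus Control, of 0.38 in the core and 0.40 in the cap. The activators and assembly factors were mixed. Of 5 activator or inhibitor genes 1 was higher and 4 did not pass (median 0.10), and of 6 tested assembly genes 3 were higher and 3 did not pass (median 0.15). No member was lower by limma (0 also at an unadjusted p under 0.05). In whole tissue, a change in the number of cells of a type and a change in RNA per cell cannot be told apart. Whether the classes differ from each other was not tested, and the medians are given as descriptions.

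These counts stand beside a broad shift. Of all 11962 genes tested 25.7% passed in either direction, 17.8% as higher and 7.87% as lower, with a median difference of 0.02; quantile normalization gave 1773 genes higher and 1543 lower, against 2132 and 942. Brighter genes passed as higher more often: among the 3687 tested genes at least as bright as the dimmest core or cap member the share was 26.4%. Of the 43 tested members 35 (81.4%) passed as higher. The 3 members too dim to test were Psma8, a testis form of a core subunit, Psmb11, the cutting subunit of the thymus, and the assembly gene Psmg4.

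**Figure D1:**
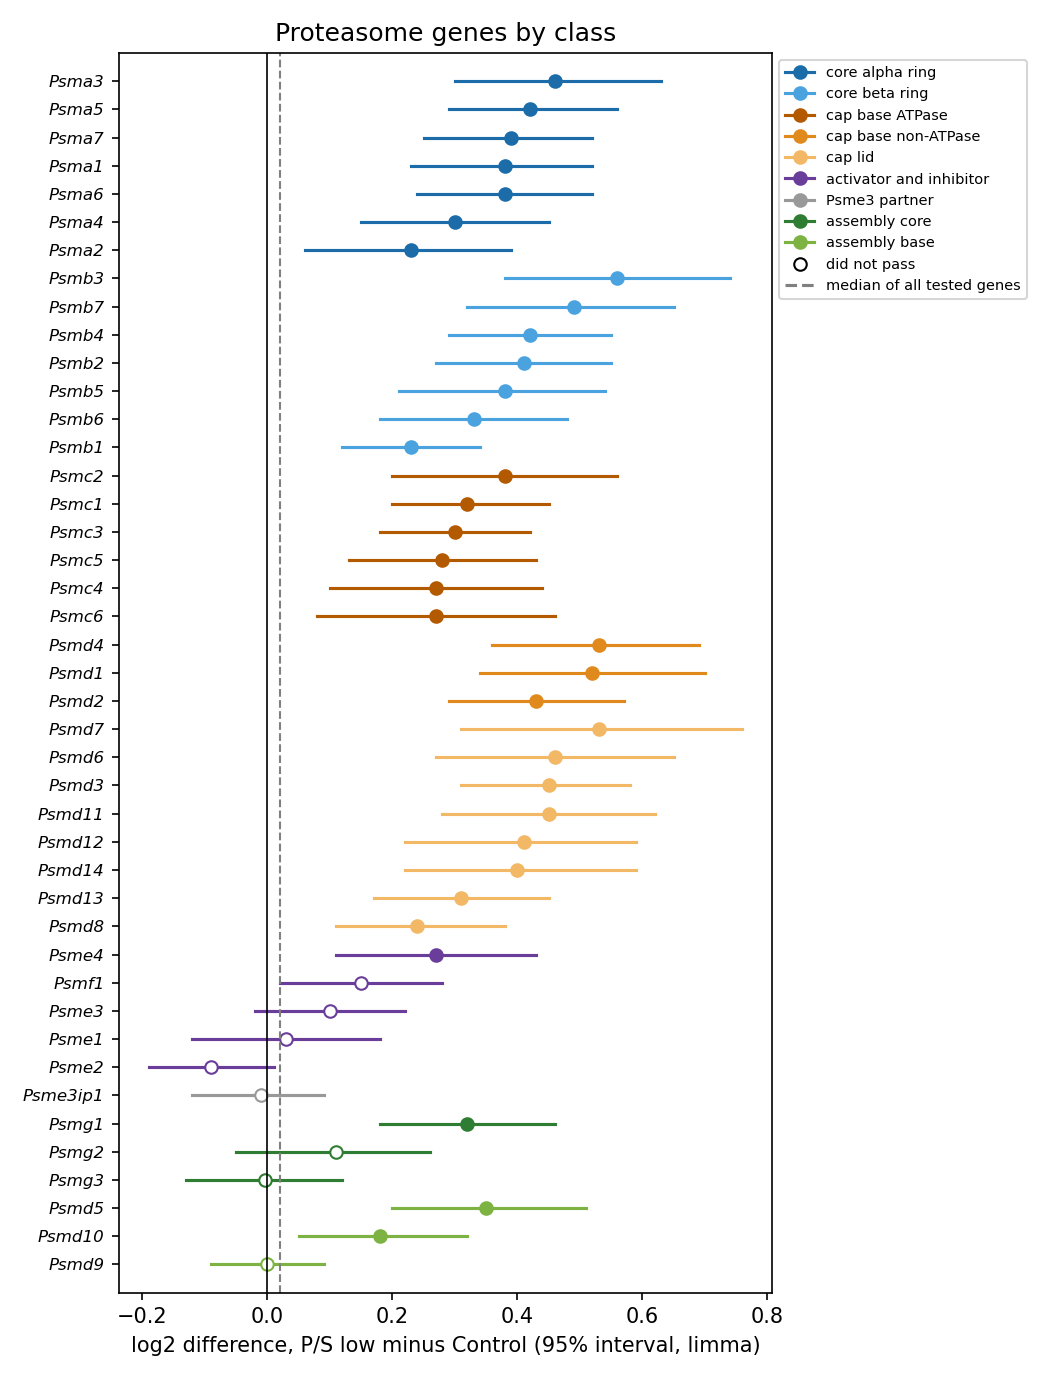
Log2 difference (P/S low minus Control, x axis) of each tested member (rows, grouped by class), with its 95% interval from limma; filled points passed at an adjusted p under 0.05, open points did not, and the dashed line marks the median of all tested genes at 0.02. All 31 core and cap genes have filled points between 0.23 and 0.56, while 4 of 5 activator or inhibitor genes, 3 of 6 assembly genes and Psme3ip1 have open points.

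Promoter windows are shown for 5 members because the core and cap genes moved together: the core and the cap gene with large differences that have a window (Psmb3 and Psmd4), the members whose window holds the antioxidant response element core (Psmd12 and Psme4), and Psme1, an activator gene that did not pass. The windows are RefSeq sequences of GRCm38.p6, running from 250 bases before the annotated start to 30 bases after it, on the strand of the gene. Psmb3 lies on the plus strand at chr11:97703184-97703463, Psmd4 on the minus strand at chr3:95042585-95042864, Psmd12 on the plus strand at chr11:107479278-107479557, Psme4 on the plus strand at chr11:30771525-30771804 and Psme1 on the plus strand at chr14:55578244-55578523. Capitals mark 3 motifs on either strand: the CCAAT box (CCAAT), the ETS core (CCGGAAG) and the antioxidant response element core (TGAC and GCA with any 3 bases between them).
Psmb3: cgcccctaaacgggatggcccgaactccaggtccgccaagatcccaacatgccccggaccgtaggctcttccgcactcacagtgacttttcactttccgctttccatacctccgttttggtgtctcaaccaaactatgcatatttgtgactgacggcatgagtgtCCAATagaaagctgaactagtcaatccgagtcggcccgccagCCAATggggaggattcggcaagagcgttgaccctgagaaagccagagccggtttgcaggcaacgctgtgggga
Psmd4: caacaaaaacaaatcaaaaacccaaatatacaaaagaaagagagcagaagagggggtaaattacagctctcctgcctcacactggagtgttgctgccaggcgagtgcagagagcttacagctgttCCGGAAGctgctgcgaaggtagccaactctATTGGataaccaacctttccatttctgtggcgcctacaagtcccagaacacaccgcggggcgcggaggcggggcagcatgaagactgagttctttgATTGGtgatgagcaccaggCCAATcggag
Psmd12: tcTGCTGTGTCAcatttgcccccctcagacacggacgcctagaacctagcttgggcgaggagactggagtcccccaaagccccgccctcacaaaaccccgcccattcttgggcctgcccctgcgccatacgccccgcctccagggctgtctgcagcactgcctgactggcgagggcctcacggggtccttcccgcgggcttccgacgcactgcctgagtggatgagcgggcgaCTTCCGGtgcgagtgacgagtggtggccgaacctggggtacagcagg
Psme4: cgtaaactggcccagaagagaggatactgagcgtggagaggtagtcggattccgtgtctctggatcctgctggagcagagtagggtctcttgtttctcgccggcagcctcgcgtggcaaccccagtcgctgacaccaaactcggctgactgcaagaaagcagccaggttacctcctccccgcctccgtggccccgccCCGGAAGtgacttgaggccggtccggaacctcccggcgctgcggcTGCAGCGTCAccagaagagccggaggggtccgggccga
Psme1: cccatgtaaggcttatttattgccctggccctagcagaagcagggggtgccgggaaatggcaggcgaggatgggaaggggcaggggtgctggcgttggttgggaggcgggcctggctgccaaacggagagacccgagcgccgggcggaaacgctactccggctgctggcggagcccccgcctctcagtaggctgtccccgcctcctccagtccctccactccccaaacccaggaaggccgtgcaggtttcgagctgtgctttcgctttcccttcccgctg

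In the Psmb3 window 2 CCAAT boxes lie 85 and 43 bases before the start. The Psmd4 window holds an ETS core 125 bases before the start and 3 CCAAT boxes, of which only the one 95 bases away lies before the start, and the Psme1 window holds none of the 3 motifs. Psme1 does not stand for all members that did not pass. The windows of Psme3 and Psme3ip1 hold both the CCAAT box and the ETS core, and that of Psmg3 holds the ETS core. Windows were found for 38 of the 46 members. The ETS core was present in 15 of these 38 member genes (39.5%), in 18.4% of the tested genes with a window and in 9.48% of all 27025 genes with one. It was present in 10 of the 25 core and cap genes with a window, a share close to that of all members. The ETS core therefore did not set the core and cap genes apart from the other members. The CCAAT box was present in 36.8% of member genes and 41.4% of tested genes, and the GC box (GGGCGG) in 60.5% of member genes and 66.4% of tested genes. The antioxidant response element core, to which the factors encoded by Nfe2l1 and Nfe2l2 bind with their partners, was present in 2 member genes (5.26%) and in 3.07% of tested genes. No marked motif overlaps another in these windows. These are matches of letters in a short window and not sites shown to be bound.

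The core genes encoding the cutting subunits were all higher on the P/S low diet. Psmb5 (probe set 10419810), the chymotrypsin-like subunit, had intensities of 409, 459 and 594 (lowest, median and highest of 6 arrays) on the P/S low diet, against 345, 362 and 388 on the Control diet. Every P/S low array lay above every Control array, with the highest value in P/S low array 5. The difference was 0.38 ± 0.08 (limma standard error, as for every ± of a difference), or 1.30-fold (adjusted p = 0.00252).

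Psmb6 (10377851), the caspase-like subunit, ranged from 1292 to 1579 with a median of 1476 on the P/S low diet, against 995 to 1277 with a median of 1199 on the Control diet. The groups again did not overlap, though the lowest P/S low array and the highest Control array were close. The difference was 0.33 ± 0.07 (1.26-fold, adjusted p = 0.00302). Psmb7 (10482229), the trypsin-like subunit, stood at 1153, 1299 and 1423 on the P/S low diet, against 772, 918 and 1033 on the Control diet. This was a wider gap, with a difference of 0.49 ± 0.08 (1.40-fold, adjusted p = 0.000421).

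Among the beta subunits without a cutting site, Psmb3 (10380815) had the largest difference of all members. Its intensities were 1324, 1500 and 1777 on the P/S low diet, against 871, 1032 and 1164 on the Control diet, a difference of 0.56 ± 0.08 (1.48-fold, adjusted p = 0.000269). Psmb1 (10448048), another structural beta subunit, stood near the low end of the core: 479, 501 and 564 on the P/S low diet, against 404, 433 and 460 on the Control diet. Its arrays varied little within each group, so the groups did not overlap although the difference was only 0.23 ± 0.05 (1.17-fold, adjusted p = 0.00528). Psmb2 and Psmb4, the other beta ring genes, were 1.33-fold and 1.34-fold higher, each without overlap.

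The 7 tested alpha ring genes, whose products form the gate of the barrel, were 1.17-fold to 1.38-fold higher. Psma3 and Psma5 had the largest of these differences (0.46 ± 0.08 and 0.42 ± 0.06), followed by Psma7, Psma6, Psma1 and Psma4 at 0.39, 0.38, 0.38 and 0.30. In these 6 genes the groups did not overlap. Psma2 (10403706) was the exception among core genes, with 695, 796 and 874 on the P/S low diet, against 568, 670 and 754 on the Control diet: 4 of the 6 P/S low arrays lay above every Control array. Its difference of 0.23 ± 0.08 (1.17-fold, adjusted p = 0.0397) did not pass in 11 of 23 refits, among them quantile normalization (adjusted p = 0.0782) and the fits without Control array 3, 4, 5 or 6 or P/S low array 1, 3, 4 or 5 (highest adjusted p = 0.0934).

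**Figure D2:**
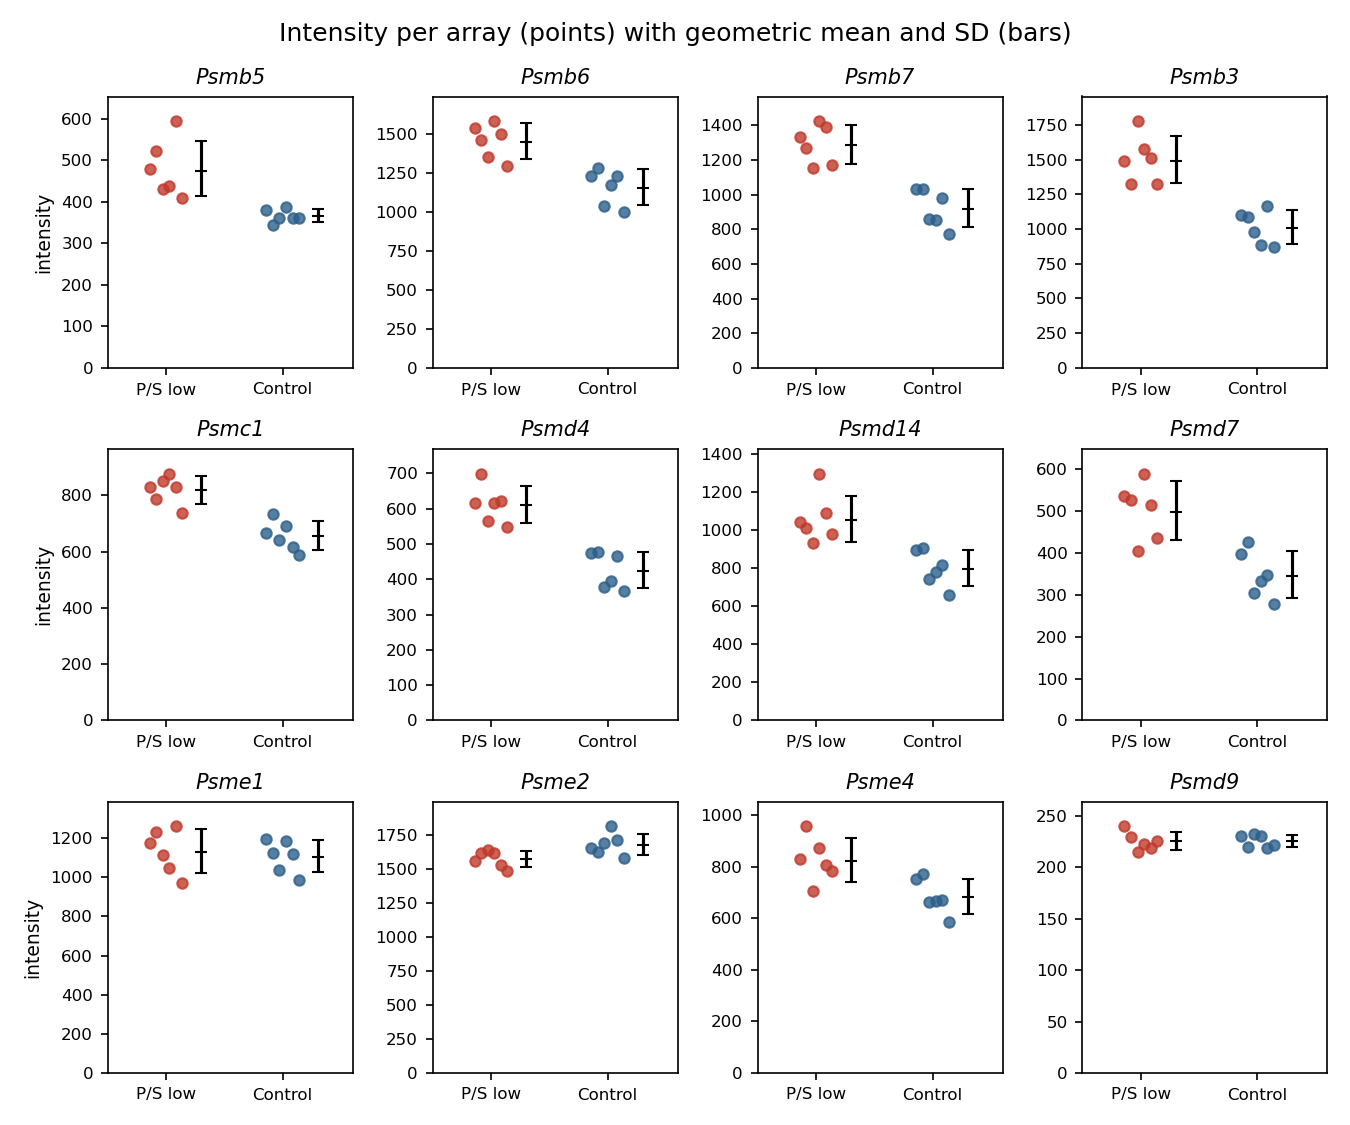
Intensity (y axis, linear, from 0) of 12 members in each array (points) of the P/S low (left) and Control (right) groups, with the geometric mean and the SD on the log2 scale as bars. The groups do not overlap for Psmb5, Psmb6, Psmb7, Psmb3, Psmc1, Psmd4 and Psmd14, overlap partly for Psmd7 and Psme4, and overlap for Psme1, Psme2 and Psmd9.

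In the base of the cap, the 6 ATPase genes Psmc1 to Psmc6, whose products unfold the substrate and thread it into the core, had differences between 0.27 and 0.38. Psmc1 (10397741) had intensities of 739, 831 and 877 on the P/S low diet, against 588, 654 and 732 on the Control diet, without overlap (0.32 ± 0.06, 1.25-fold, adjusted p = 0.00119). Psmc2 and Psmc3 also separated the groups, at 1.30-fold and 1.23-fold. In Psmc4, Psmc5 and Psmc6 the groups overlapped, and Psmc6 (10414288) was the weakest, with 886, 1012 and 1253 on the P/S low diet, against 723, 843 and 975 on the Control diet (0.27 ± 0.09, 1.21-fold, adjusted p = 0.0324). The Psmc6 call was lost in 9 of 23 refits, including quantile normalization (adjusted p = 0.0506) and the fits without Control array 3, 4, 5 or 6 or P/S low array 1, 4 or 5. Psmc4 lost its call only where variances were not moderated across genes (adjusted p = 0.058).

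The base genes that are not ATPases had larger differences. Psmd4 (10500054), a receptor for ubiquitin chains, stood at 548, 615 and 699 on the P/S low diet, against 366, 430 and 476 on the Control diet, with every P/S low array above every Control array (0.53 ± 0.08, 1.44-fold, adjusted p = 0.000248). Psmd1 and Psmd2, the large scaffold proteins on which substrates and shuttle factors land, were 1.44-fold and 1.35-fold higher, also without overlap. The median difference was 0.52 over these 3 genes and 0.29 over the 6 ATPase genes, a contrast that was not tested.

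All 8 lid genes among the members were higher, by 1.18-fold to 1.45-fold. Psmd14 (10472300), the deubiquitylase that cuts ubiquitin chains from the substrate, had intensities of 932, 1028 and 1299 on the P/S low diet, against 659, 799 and 910 on the Control diet, without overlap (0.40 ± 0.09, 1.32-fold, adjusted p = 0.0032). Psmd7 (10581560), its partner in the lid, was spread more widely: 404, 520 and 589 on the P/S low diet, against 278, 339 and 427 on the Control diet. In 5 of 6 P/S low arrays it lay above every Control array, and the difference of 0.53 ± 0.11 was the largest in the lid (1.45-fold, adjusted p = 0.0021). The structural lid gene Psmd8 (10561679) had the smallest difference, with 1044, 1139 and 1264 on the P/S low diet, against 867, 952 and 1126 on the Control diet (0.24 ± 0.06, 1.18-fold, adjusted p = 0.0117). The other lid genes, Psmd3, Psmd6, Psmd11, Psmd12 and Psmd13, lay between 0.31 and 0.46, and of these Psmd11 alone overlapped between the groups.

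The activators that dock in place of the cap did not follow as a group. Psme4 (10374934), a large nuclear activator, was higher, with 705, 818 and 957 on the P/S low diet, against 585, 670 and 771 on the Control diet; 5 of 6 P/S low arrays lay above every Control array (0.27 ± 0.08, 1.20-fold, adjusted p = 0.0169). Psme1 (10415282), which with Psme2 forms the interferon-inducible activator, had 973, 1145 and 1261 on the P/S low diet, against 988, 1121 and 1194 on the Control diet. The groups overlapped almost wholly, and the difference was 0.03 with a 95% interval of -0.12 to 0.18 (adjusted p = 0.78).

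Psme2 (10420030) had 1486, 1587 and 1636 on the P/S low diet, against 1582, 1670 and 1814 on the Control diet. No P/S low array exceeded the highest Control array, and the difference was -0.09 with a 95% interval of -0.19 to 0.01 (adjusted p = 0.161). With quantile normalization Psme2 passed as lower (-0.19, adjusted p = 0.0112), the only call of a lower member in any refit. Psme3, which encodes a nuclear activator of its own, had a difference of 0.10 (interval -0.02 to 0.22), and its partner gene Psme3ip1 one of -0.01 (interval -0.12 to 0.09).

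Psmf1 (10488575) encodes a protein first described as a proteasome inhibitor. It had 241, 291 and 302 on the P/S low diet, against 231, 254 and 283 on the Control diet, and 5 of 6 P/S low arrays lay above every Control array. The difference was 0.15 ± 0.06 (adjusted p = 0.0929), and P/S low array 3 stood far below the other 5. Without that array Psmf1 passed (0.19, adjusted p = 0.017), as it did without Control array 1 (0.18, adjusted p = 0.0461), without Control arrays 1 and 2 (0.20, adjusted p = 0.0289) and when arrays were weighted by quality (0.17, adjusted p = 0.0348).

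Among the assembly chaperones of the core, Psmg1 (10441107) was higher without overlap: 263, 276 and 323 on the P/S low diet, against 208, 231 and 256 on the Control diet (0.32 ± 0.07, 1.25-fold, adjusted p = 0.00269). Psmg2, the partner of Psmg1, had a difference of 0.11 with an interval of -0.05 to 0.26. Psmg3 (10535184) was dim, at 97.7, 99.9 and 118 on the P/S low diet, against 96.9, 103 and 117 on the Control diet, and its difference had an interval of -0.13 to 0.12.

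The 3 chaperones of the cap base also split. Psmd5 (10481920) had 285, 310 and 358 on the P/S low diet, against 216, 248 and 281 on the Control diet, without overlap (0.35 ± 0.07, 1.28-fold, adjusted p = 0.00249). Psmd10, also known as gankyrin, passed narrowly (0.18 ± 0.06, 1.14-fold, adjusted p = 0.0475) and lost its call in 14 of 23 refits, among them all but those without Control array 1 or 2 or P/S low array 2 of the fits leaving out a single array (highest adjusted p = 0.11 there). Psmd9 (10525506) had 215, 225 and 240 on the P/S low diet, against 219, 226 and 232 on the Control diet. Its interval of -0.09 to 0.09 lies below the estimate of every core and cap gene. It overlaps the intervals of Psma2 (0.06 to 0.39) and Psmc6 (0.08 to 0.46), and no contrast between these genes was tested.

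**Figure D3:**
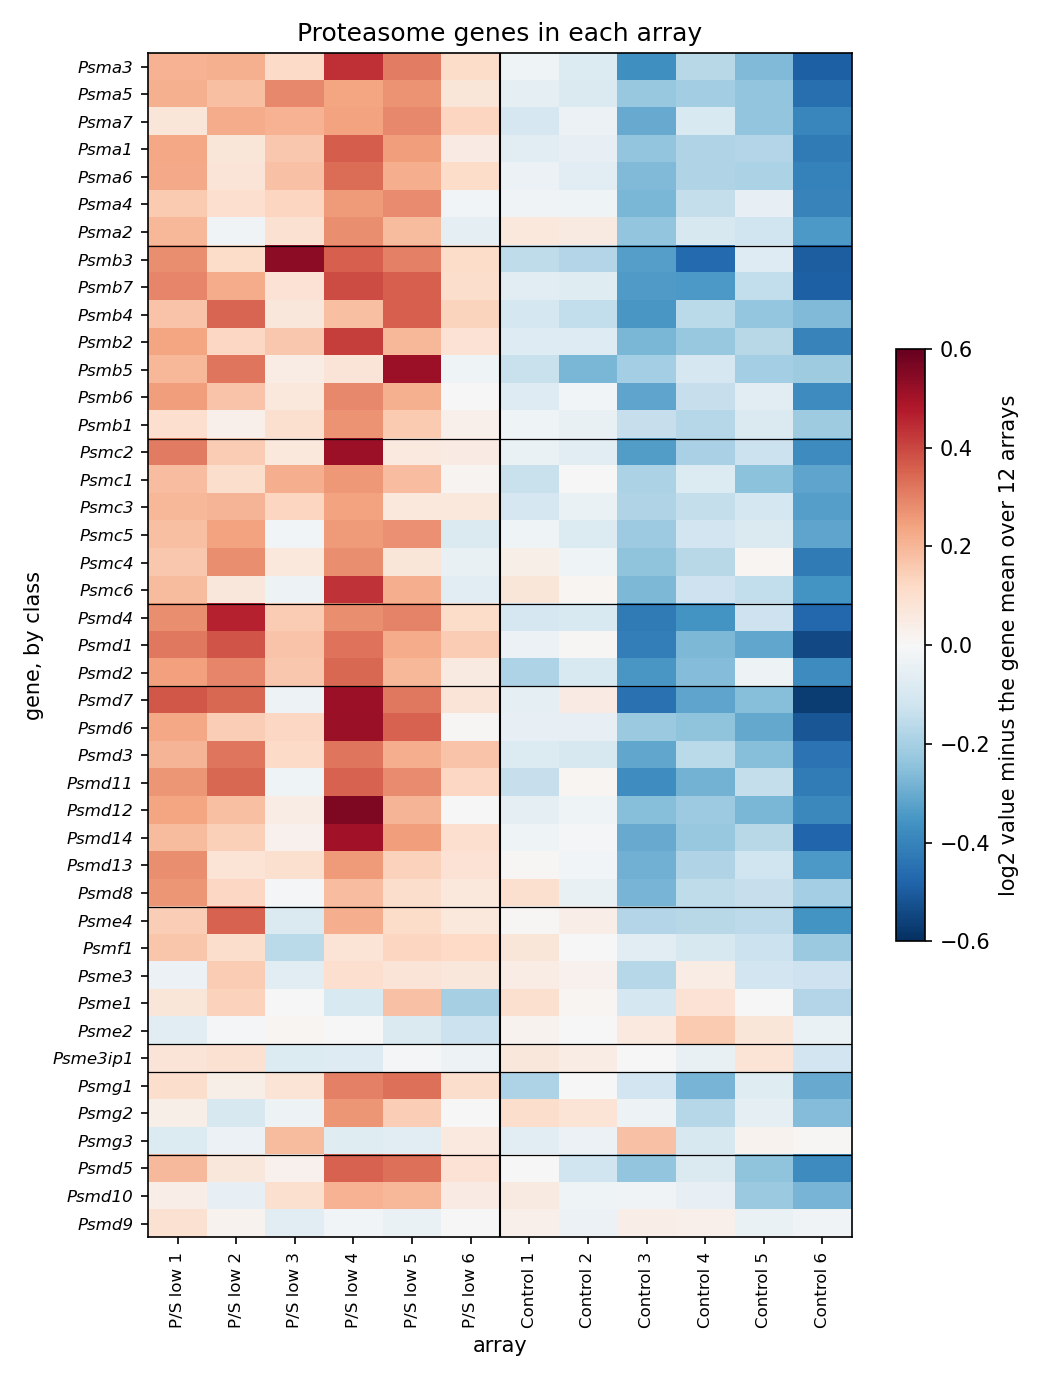
Log2 value of each tested member (rows, by class, in the order of the plot of differences) in each array (columns, P/S low left and Control right), as the distance from the mean of that gene over the 12 arrays; red is above and blue below that mean. The core and cap rows are red in most P/S low columns and blue in most Control columns, palest in P/S low arrays 3 and 6 and in Control arrays 1 and 2, and darkest blue in Control array 6.

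The core and cap genes also varied together between arrays of a group. As the median over these 31 genes of the log2 distance from the mean of the gene, the P/S low arrays 1 to 6 stood at 0.23, 0.18, 0.10, 0.32, 0.22 and 0.06, and the Control arrays 1 to 6 at -0.05, -0.05, -0.28, -0.18, -0.15 and -0.40. All P/S low arrays were therefore above all Control arrays, with P/S low array 4 at the top and Control array 6 at the bottom. Control array 6 was the lowest Control array in 28 of the 31 genes, and P/S low array 6 the lowest P/S low array in 20. Other gene sets shared some of these extreme arrays. Control array 6 was the lowest Control array in all 8 CCT chaperonin genes and 7 of 9 COP9 signalosome genes. This held in 8 of 11 shuttle factor and segregase genes and 6 of 7 crypt and proliferation markers, Mki67, Top2a and Cdk1 among them. It held in all 3 immunoproteasome genes, but in only 2 of 10 proteasome gene regulators, 2 of 6 smooth muscle markers and 0 of 9 enterocyte markers. P/S low array 4 was the highest P/S low array in 19 of the 31 core and cap genes. The same array was highest in 6 of 8 CCT genes and 6 of 9 COP9 genes. In the shuttle factor and segregase genes it was highest in 3 of 11, and in the crypt and proliferation markers in 2 of 7. It was also highest in 7 of 10 proteasome gene regulators and 4 of 6 smooth muscle markers. In the immunoproteasome genes it was highest in 0 of 3, and in the enterocyte markers in 0 of 9. No such share was counted over all genes tested. Without Control array 6 the medians were 0.36 in the core and 0.35 in the cap, and 32 members passed as higher. Without P/S low array 4 they were 0.37 and 0.34, again with 32 members higher. The groups did not overlap, with P/S low above, in 13 of 14 core genes, 11 of 17 cap genes, 0 of 5 activator or inhibitor genes and 2 of 6 assembly genes, against 6.86% of all genes tested.

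For 5 members more than 1 probe set named only that gene, in all 11 probe sets, many of which share transcript accessions. The 6 probe sets that were not the brightest had differences of the same sign, and 5 of them passed as higher in a fit over all such probe sets. The exception was a Psma3 probe set (10419711) with a difference of 0.20 ± 0.10 (adjusted p = 0.136), against 0.46 for the brightest and 0.50 for the remaining Psma3 probe set. Hybridisation shared with processed copies of these genes was not tested.

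The standard cutting subunits were next set against the immunoproteasome subunits that replace them. Psmb8, the counterpart of Psmb5, was lower on the P/S low diet, at a geometric mean of 527 on the P/S low diet and 679 on the Control diet (-0.37 ± 0.05, adjusted p = 0.000122), while Psmb9 and Psmb10 did not pass (0.14 ± 0.06, adjusted p = 0.0841, and -0.14 ± 0.07, adjusted p = 0.129). Psmb10 passed as lower with quantile normalization (-0.21, adjusted p = 0.0386), and Psmb9 as higher with the array number as a block (0.14, adjusted p = 0.0347). The log2 difference of Psmb5 minus Psmb8 within an array averaged -0.15 ± 0.19 (SD, n = 6) on the P/S low diet and -0.89 ± 0.05 on the Control diet, a shift of 0.74 toward the standard subunit, or 1.67-fold (two-sided exact permutation p = 0.0022, which no arrangement of 6 and 6 arrays can undercut, and 0.0032 after Benjamini-Hochberg adjustment over 3 pairs). Psmb7 minus Psmb10 averaged 1.07 ± 0.17 on the P/S low diet and 0.44 ± 0.19 on the Control diet, a shift of 0.63 (exact permutation p = 0.0022, adjusted p = 0.0032). In both pairs all 6 P/S low arrays lay above all 6 Control arrays. For Psmb5 minus Psmb8 this had to follow, since Psmb5 and Psmb8 each separated the groups without overlap in opposite directions. Its permutation p therefore adds nothing to the results of the single genes. Within the shift of Psmb7 minus Psmb10, Psmb7 had a difference of 0.49 and Psmb10 one of -0.14. For the pairs with Psmb10 and Psmb9, a change between subunit forms and the general rise of the core genes cannot be told apart here. Within the shift of Psmb5 minus Psmb8, Psmb5 had a difference of 0.38 and Psmb8, itself lower, one of -0.37. The cause of that shift was not tested. For Psmb6 minus Psmb9 the averages were 1.00 ± 0.15 on the P/S low diet and 0.80 ± 0.15 on the Control diet, and the shift of 0.19 did not pass (exact permutation p = 0.052, adjusted p = 0.052). Each shift is a change in a ratio of probe sets, so the size of the ratio itself does not give the proportion of the subunits.

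**Figure D4:**
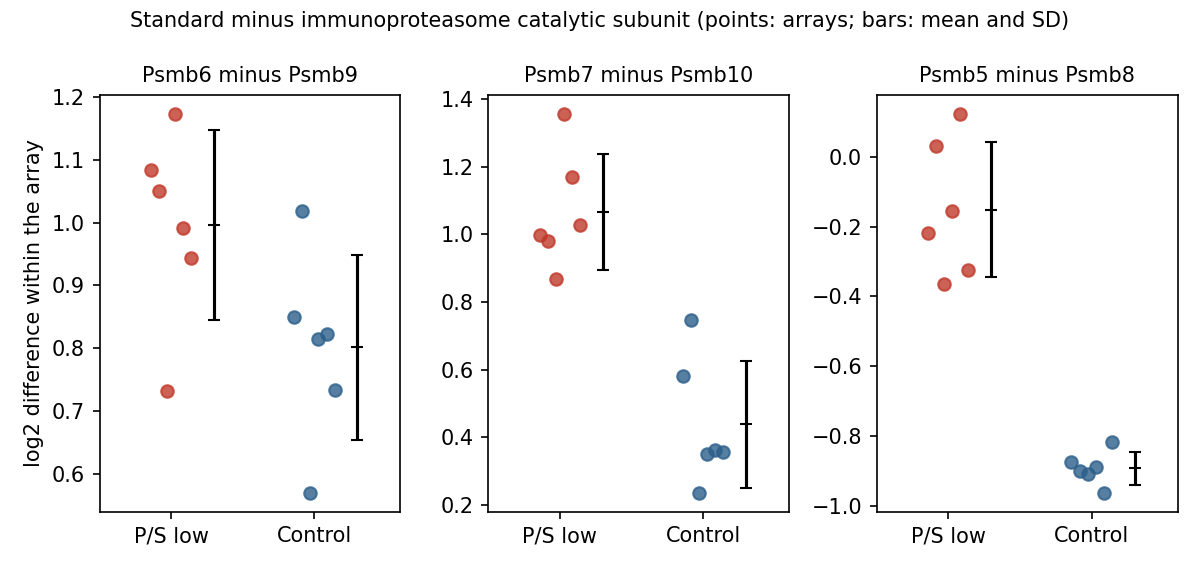
Log2 difference within each array (y axis) between a standard cutting subunit and the immunoproteasome subunit that takes its place, for 3 pairs, in P/S low (left) and Control (right) arrays; points are arrays and bars are the mean and SD of 6 arrays. The groups are separate for Psmb7 minus Psmb10 and for Psmb5 minus Psmb8, and overlap for Psmb6 minus Psmb9.

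Genes that work with the proteasome but carry other symbols were partly higher. Of 10 such genes 5 passed as higher and 5 did not pass (median difference 0.22). Sem1, a lid subunit gene outside the symbol rule, was among those higher (0.20 ± 0.06, adjusted p = 0.017). Usp14, a deubiquitylase that docks on the cap, was 1.37-fold higher without overlap (0.46 ± 0.10, adjusted p = 0.00411), and Pomp, the chaperone that completes the core, 1.24-fold higher (0.31 ± 0.08, adjusted p = 0.00813). Txnl1, a redox protein bound to the cap, and Ecpas, which clamps core and cap together, were 1.24-fold and 1.18-fold higher. With quantile normalization the difference was 0.20 for Pomp and 0.15 for Ecpas, against 0.31 and 0.24, and Txnl1 lost its call with unmoderated variances (adjusted p = 0.052). The cap subunit gene Adrm1 was not analysed here. Uba6, an enzyme that activates ubiquitin, was 1.22-fold higher (adjusted p = 0.0359); it lost that call with unmoderated variances (adjusted p = 0.0925) and without Control array 3, 4, 5 or 6 or P/S low array 1 or 4 (highest adjusted p = 0.0873).

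Upstream of the cap, 9 of 11 shuttle factor and segregase genes passed as higher and 2 did not pass (median 0.24). Vcp, the ATPase that pulls ubiquitin-tagged proteins out of complexes and membranes, was at 1994 on the P/S low diet and 1433 on the Control diet (geometric means), a difference of 0.48 ± 0.08 (1.39-fold, adjusted p = 0.00042). Its cofactors Nsfl1c and Ubxn1 were 1.36-fold and 1.18-fold higher, and the shuttle factor gene Rad23b 1.31-fold higher. Downstream, 3 of 9 cytosolic peptidase genes were higher, 1 was lower and 5 did not pass. Blmh and Rnpep were 1.31-fold and 1.27-fold higher and Dpp3 1.14-fold, whereas the leucine aminopeptidase gene Lap3 was lower (-0.30 ± 0.06, adjusted p = 0.00188). The Dpp3 call was lost with quantile normalization (0.11, adjusted p = 0.0654), with unmoderated variances (adjusted p = 0.0679) and without Control array 3, 5 or 6 or P/S low array 1, 2 or 4 (highest adjusted p = 0.0928).

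Regulators of proteasome gene transcription passed at about the background share, with 2 of 10 higher and 8 not passing (median 0.10). Nfe2l1 itself had a difference of 0.15 ± 0.06 (1.11-fold, adjusted p = 0.0804). Nfe2l2, the related factor of the oxidative stress response, was 1.15-fold higher (0.20 ± 0.07, adjusted p = 0.041), and Nfyc, a subunit of the CCAAT-binding factor, 1.12-fold higher (adjusted p = 0.0461), while its partner Nfyb did not pass (0.12 ± 0.07, adjusted p = 0.253). Neither the Nfe2l2 nor the Nfyc call held throughout: Nfe2l2 stood at 0.10 with quantile normalization (adjusted p = 0.24) and Nfyc at 0.06 over the mean of its probe sets (adjusted p = 0.474). Without a filter and with unmoderated variances both were lost, and Nfyc also with quantile normalization (0.09, adjusted p = 0.0982) and a trended prior. Both were lost as well without Control array 3, 4, 5 or 6 or P/S low array 1, 4 or 5, Nfe2l2 without P/S low array 6 and Nfyc without P/S low array 2. Nfe2l1 passed without Control array 4 (0.18, adjusted p = 0.0476). Transcript levels do not show the activity of these factors, which are also controlled after translation.

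Other protein complexes were largely higher too. The CCT chaperonin, which folds actin and tubulin, had 7 of 8 genes higher (median 0.29), with the smallest p for Cct7, Tcp1, Cct8 and Cct3 at 1.21-fold, 1.31-fold, 1.31-fold and 1.35-fold. The COP9 signalosome, whose subunits are related to those of the proteasome lid, had 6 of 9 genes higher (median 0.23), with Cops6 at 1.35-fold, Cops5 at 1.29-fold, Cops8 at 1.20-fold and Cops3 at 1.18-fold; the Cops3 call was lost with quantile normalization (0.17, adjusted p = 0.0538), with unmoderated variances and without Control array 3, 4 or 6 or P/S low array 1 or 4 (highest adjusted p = 0.0723). Of the tested ribosomal protein genes, 55 of 76 mitochondrial ones (72.4%, median 0.25) and 35 of 54 cytosolic ones (64.8%, median 0.20) passed as higher. None of these 4 sets had a lower member by limma; at an unadjusted p under 0.05 each of the ribosomal sets had 1 and the other sets had 0. The core and cap shares of 100% and medians of 0.38 and 0.40 lay above these values, a comparison of counts for which no test was made.

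**Figure D5:**
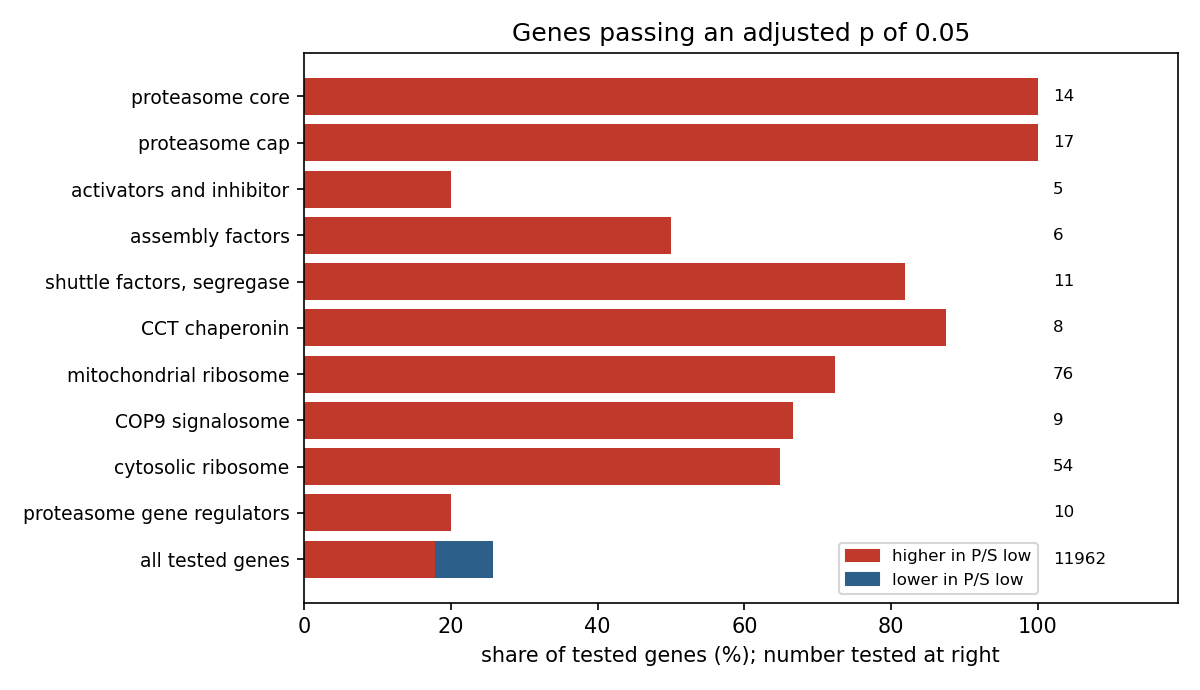
Share of tested genes (x axis, percent) that passed at an adjusted p under 0.05 as higher (red) or lower (blue) on the P/S low diet, for the proteasome classes, related gene sets and all tested genes (rows); the number tested is printed at the right of each bar. The core and cap bars reach 100%, the related complexes lie between 64.8% and 87.5%, and the bar of all genes reaches 25.7%.

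The tissue label was checked against marker genes. Enterocyte markers were bright in all arrays, with a summed intensity of 56458 to 66446 on the P/S low diet and 59996 to 81693 on the Control diet, and pancreatic markers (Cela3b, Cpa1 and Prss2) were too dim to test. Of 9 enterocyte markers 2 were higher, 3 lower and 4 did not pass; the log2 differences of the lower genes Anpep, Sis and Vil1 were -0.63, -0.37 and -0.30. Cdx2, a transcription factor of the intestinal epithelium, was 1.12-fold higher, a call lost with quantile normalization (0.08, adjusted p = 0.266), without P/S low array 5 (0.15, adjusted p = 0.0516) and without Control arrays 1 and 2 (0.13, adjusted p = 0.075). Of 6 tested crypt and proliferation markers 3 were higher, the cell cycle genes Mki67, Cdk1 and Top2a (1.35-fold, 1.32-fold and 1.36-fold). Top2a had 0.28 over the mean of its probe sets, against 0.45, and lost its call without Control array 4 or P/S low array 4 (adjusted p = 0.0507 and 0.0512) and, like Cdk1, with unmoderated variances (0.0765 for Top2a and 0.0595 for Cdk1). The stem cell gene Lgr5 had -0.14 (adjusted p = 0.159) and passed as lower without P/S low array 6 (-0.19, adjusted p = 0.0472). The summed intensity of all 7 markers on this list, most of it from Olfm4, another crypt gene, which did not pass (adjusted p = 0.984), was 2918 to 4043 on the P/S low diet and 2479 to 3942 on the Control diet. Of 4 tested plasma cell markers 2 were higher, with Jchain 1.73-fold, and summed intensities of 3398 to 4400 on the P/S low diet and 2568 to 3111 on the Control diet did not overlap. Without Jchain the sum over the other 4 markers was 1628 to 2035 on the P/S low diet and 1545 to 1739 on the Control diet, which overlap. Mzb1 was 1.16-fold higher (adjusted p = 0.0491), a call lost in most refits, while Xbp1 (0.18) and Sdc1 (-0.11, adjusted p = 0.0811) did not pass, Sdc1 being lower at an unadjusted p under 0.05. Sdc1 passed as lower with quantile normalization (-0.16, adjusted p = 0.02) and unmoderated variances, and Xbp1 as higher with the array number as a block and without P/S low array 6 (0.23, adjusted p = 0.0454). None of 6 smooth muscle markers passed (0 at an unadjusted limma p under 0.05), with differences of -0.10, -0.09, -0.11 and -0.06 for Myh11, Acta2, Actg2 and Cnn1, and neither of the tested adipose markers, Adipoq and Plin1, passed (1 lower at an unadjusted p). Without Control array 1 both adipose markers passed as lower (-0.67 and -0.36, adjusted p = 0.015 and 0.00486).

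Of 4 tested immune cell markers 1 was higher and 1 lower. The myeloid gene Itgam was higher (0.26 ± 0.06, adjusted p = 0.00419) and the T cell gene Cd3e lower (-0.26 ± 0.07, adjusted p = 0.011). Cd3g, of the same receptor complex, and Ptprc, which marks all leukocytes, did not pass (-0.30 and 0.27), though Cd3g passed as lower without P/S low array 3 (-0.38, adjusted p = 0.0208), with array weights and with the array number as a block. P/S low array 3 was the highest P/S low array in 6 of the 7 immune markers. In that array the B cell genes Cd79a and Ms4a1, too dim to test, stood at 193 and 168, against medians of 63.5 and 47.4 in its group, and Ptprc at 389. Without P/S low array 3, 34 members were higher, the medians were 0.39 in the core and 0.44 in the cap, Psmb8 had a difference of -0.38, and Psmb5 minus Psmb8 and Psmb7 minus Psmb10 shifted by 0.78 and 0.67. Psmb6 minus Psmb9 then passed (0.25, exact permutation p adjusted over the pairs = 0.011). The part of these marker shifts in the differences of the proteasome genes was not tested.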

How the data were processed

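Total RNA (500 ng, without removal of ribosomal RNA) was labelled for whole-transcript sense-strand arrays, per the labels. The authors deposited a linear intensity per probe set, between 17.7 and 20294; its summarisation and normalisation are not given in the sources used here. Array medians lay between 91.9 and 99.5. Probe sets were named through the platform annotation, 21640 with 1 symbol, 1321 with several and 11799 with none; 21553 gene IDs matched RefSeq. The log2 of the value was taken, and genes whose mean lay under the 40th percentile (intensity 85.6) were left out, which leaves 11962 tested. Diets were compared with limma 3.58.1 in R 4.3.3 (lmFit and eBayes, two-sided, diet as the only term) with Benjamini-Hochberg adjustment over all genes tested and a threshold of 0.05. The median standard error was 0.061; the number of arrays limits precision. Subunit pairs were compared by exact permutation over 924 arrangements (Python 3.11.15, NumPy 2.4.6). The design text calls the 6 arrays of a group biological replicates.

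Values per array are given for Psmb5, Psmb6, Psmb7, Psmd4, Psmd14, Psmc1 and the 2 largest and 2 smallest differences of each class; of each related list up to 4 genes of smallest p were named, with Nfe2l1, Nfe2l2, Pomp, Psmb8, Psmb9 and Psmb10 in any case. Sem1, Olfm4, Cd79a, Ms4a1, Cela3b, Cpa1 and Prss2 were named in addition. Members, lists and the fit were chosen with earlier results of these data known. The fit was run on simulated data in which genes varied independently, which does not cover the shared variation between arrays seen here. Alternatives were other scalings, filters, variance priors, weights, probe set rules, a pseudocount of 16, a replicate block and left-out arrays.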

Additional observations from a re-analysis of the deposited data

Results flagged for a closer look

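A single array stood apart from the other 5 of its group in 7 of the 186 gene and group combinations looked at (93 named genes in both groups), where chance gives about 1 in 20. Among the members this concerned Psmf1, whose intensity of 241 in P/S low array 3 compares with 285 in the next lowest array of that group; without that array Psmf1 passed as higher (0.19, adjusted p = 0.017 by limma). Among related genes, Cops8 reached 529 in P/S low array 4, against 469 in the next highest, and Nfyb was lowest in Control array 6 at 173, against 207 in the next. The marker genes so placed were Acta2 (2067) and Actg2 (663), both lowest in P/S low array 6, Mzb1 highest in P/S low array 3 (153) and Myh11 highest in Control array 4 (2516). No explanation of these values was tested.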

How the results depend on the processing

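Of the 35 members called higher, 31 kept the call in each of 23 refits, 13 of them core and 15 cap genes; Psma2, Psmc4, Psmc6 and Psmd10 lost it in 11, 1, 9 and 14. The number higher was 31 to 36, and 32 to 36 when a single array was left out, with 0 lower; quantile normalization gave 32 higher and 1 lower. Over all genes quantile normalization gave 1773 higher and 1543 lower, against 2132 and 942, so the balance of directions rests on the scaling. Leaving out single arrays gave medians of 0.29 to 0.36 over the members, 0.36 to 0.41 in the core, 0.34 to 0.44 in the cap, 0.07 to 0.12 in activators and 0.11 to 0.18 in assembly genes; quantile normalization gave 0.26, 0.30, 0.31, 0.02 and 0.08, and 0.15 each for Psmb1 and Psmd8, which still passed. Without Control arrays 1 and 2, 36 members were higher, with medians of 0.45 in the core and 0.47 in the cap.

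Signs turned for genes near 0: Psme1 with quantile normalization (-0.05); Psmg3 with quantile normalization (0.01) and median centring (0.02); Psmd9 with median centring (0.02) and array weights (0.01); and Psme3ip1 with median centring (0.01) and without Control arrays 1 and 2 (0.01). With single arrays left out the ranges were -0.0026 to 0.07 for Psme1, -0.04 to 0.03 for Psmg3, -0.02 to 0.01 for Psmd9, -0.03 to 0.00461 for Psme3ip1, -0.15 to 0.01 for Acta2 and -0.11 to 0.03 for Cnn1. Psmb6 minus Psmb9 passed the exact permutation test with a pseudocount of 16 (0.19, adjusted p = 0.05 after rounding), without Control arrays 1 and 2 (0.26, adjusted p = 0.029), without Control array 2 and without P/S low array 3 (range over left-out arrays 0.15 to 0.25); the other pairs kept their calls, at 0.57 to 0.69 and 0.69 to 0.78. The cause of these changes was not tested.

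Arrays of the same number were not treated as pairs. Their deviations correlated between -0.109 and 0.418, and 4 of 12 arrays correlated best with their own number, which does not exclude a pairing. With the number as a replicate block 34 members were higher, and the exact permutation within 6 same-number pairs gave 0.19 for Psmb6 minus Psmb9 (adjusted p = 0.031, the smallest it can give).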
